A study of Mus musculus with 9 samples.

Results

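V10 is the smallest of the 10 clusters of visceral motor neurons, V1 to V10, that the deposited annotation names among the cholinergic nuclei of the adult mouse spinal cord. Its members were chosen by that cluster name alone. They were 189 of 5613 visceral nuclei, 16042 cholinergic nuclei and 34231 annotated nuclei in all, which was 3.37% of the visceral and 1.18% of the cholinergic nuclei pooled over libraries. The cluster was labelled by Fras1 and Pcsk2. The 189 nuclei came from 9 libraries, and 7 of these held at least 10 of them.

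Visceral motor neurons of the spinal cord are preganglionic autonomic neurons. They release acetylcholine onto neurons of peripheral ganglia or onto chromaffin cells of the adrenal gland, rather than onto skeletal muscle, and so act on heart, vessels, glands, gut and bladder through a second neuron. They receive descending input from the brainstem and hypothalamus that carries serotonin, catecholamines and peptides, and many of them also make nitric oxide or neuropeptides beside acetylcholine.

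The mice carried 1 Cre allele at the Chat locus (Chat-iCre:+/wt) and 1 allele of a nuclear envelope reporter (SUN-SfGFP:+/wt), and they were 8 weeks old. Cre is active where Chat, the gene of the acetylcholine-synthesizing enzyme, is or has been expressed, so the sort for GFP+ and DRAQ5+ nuclei enriched cholinergic neurons and holds no untreated or mutant group to compare with. Cords were cut into cervical, thoracic and lumbar/sacral regions. Each region gave 3 libraries from pools of 4 mice. Replicate 1 mixed 2 males and 2 females, replicate 2 was male and replicate 3 female, so that 12 mice in all stood behind 3 pools. The 9 libraries are the replicates below, and p-values measure the spread between them, not between mice. The 3 regions of a pool come from the same mice, and each sex is 1 pool, so sex and pool cannot be told apart. Values are counts that the authors corrected for sequencing depth. They were summed over the V10 nuclei of a library, and over the V1 to V9 nuclei of the same library ("other V"), and are given relative to that sum, scaled to a total of 1000000 (CPM).

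Depth differed between the V10 sums. They held 36607 to 385494 corrected counts, so that 1 count was worth 27.3 to 2.59 CPM, and the median total per V10 nucleus (4668 to 14522 over libraries) stayed close to that of the other V nuclei of the same library. Since the counts were corrected for depth, these medians cannot show whether V10 nuclei were sequenced as deeply as the others. Of the 34101 distinct barcode sequences, 130 occurred in more than 1 library, and 2 of these belonged to V10. A doublet caller marked 164 cholinergic nuclei (1.02%), 1 of them in V10.

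Before the results, 2 features of the libraries need stating. The library labelled cervical of replicate 2 and the library labelled thoracic of replicate 2 went against their labels in Hox genes, which mark position along the cord. Over all cholinergic nuclei, Hoxc5 was at 25.4, 73.3 and 22.5 CPM in cervical replicates 1 to 3 and at 85.3, 13.9 and 84.2 CPM in thoracic replicates 1 to 3. Hoxa9 was at 0.412, 9.68 and 0.213 CPM in the cervical and at 9.35, 0.507 and 9.04 CPM in the thoracic libraries. The V10 nuclei alone showed the same order, with Hoxc5 at 43.6, 125 and 42.9 CPM in the cervical and 194, 26.9 and 110 CPM in the thoracic libraries. The labels were kept, and results that rest on these libraries are given with and without this pair.

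The other feature is a set of nuclei with few zeros, defined as fewer than 5 zeros among the 500 genes with the highest sum of their library. There were 280 such nuclei among the cholinergic nuclei and 18 in V10, of which 15 were among the 26 V10 nuclei of the library labelled cervical of replicate 2 and 3 among the 21 of cervical replicate 3. The 15 differed from the 11 other V10 nuclei of their library. Mpped2, a gene of the cholinergic interneurons here, was at exactly 1 in 15 of 15 and at 0 in 11 of 11, and Pax2, a transcription factor of the same neurons, was above 0 in 12 of 15 and 0 of 11. Qrfpr, one of the leading V10 genes below, had a median of 7 against 21 corrected counts. In all, 2388 genes were above 0 in each of the 15 nuclei, and 677 of these were so in each of the 11. Why they differ was not tested, and the counts and values below are also given without them where this matters.

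The name of the class was checked on its markers. Zeb2, a transcription factor of visceral motor neurons, was at 616 CPM over all V10 nuclei, against 3.25 to 30.9 CPM in the 11 skeletal and interneuron clusters. Fbn2, the gene of the matrix protein fibrillin-2, was at 198 CPM in V10 and at 5.13 to 25.2 CPM in those 11 clusters. Both markers thus stood above the non-visceral classes in V10. Within the visceral class Zeb2 in V10 (384, 565 and 788 CPM as the lowest, median and highest of 7 libraries) overlapped that of the other V nuclei (210, 417 and 568 CPM), while Fbn2 was lower in V10 (148, 194 and 243 CPM) than in the other V nuclei (333, 429 and 999 CPM) in every library, with no overlap. Chat did not separate them (156, 219 and 316 against 169, 208 and 257 CPM).

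Genes of other cell types were low or at the level of the other V nuclei. The summed level of 6 astrocyte markers was 0 to 22.5 CPM in V10 and 18.6 to 35.3 CPM in the other V nuclei, with Slc1a3 and Aqp4 at 0 in each V10 sum. The 6 oligodendrocyte markers summed to 10.4 to 62.6 against 55.8 to 73.2 CPM, 4 microglial markers to 26.8 to 102 against 25.6 to 110 CPM, and 6 skeletal motor neuron markers to 578 to 1079 against 641 to 874 CPM. The 4 markers of cholinergic interneurons summed to 18.2 to 176 CPM in V10 against 24.4 to 41.9 CPM. The highest value was that of the library labelled cervical of replicate 2, and the next was 47.0 CPM.

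The label genes were then described nucleus by nucleus. Fras1 (chr5:96373955-96784728, plus strand, GRCm38) encodes an extracellular matrix protein of basement membranes. It was at 137, 305 and 491 CPM (lowest, median and highest) in V10 and at 4.17, 81.6 and 182 CPM in the other V nuclei, a difference of 2.48 ± 1.65 (SD, n = 7 libraries) on the log2(CPM + 5) scale. V10 was higher in 7 of 7 libraries although the ranges overlapped. The other V nuclei were uneven, at 167, 14.7 and 182 CPM in cervical and 10.4, 163 and 4.17 CPM in thoracic replicates 1 to 3, an order in which the pair of replicate 2 again stood with the opposite label. Without that pair the difference was 2.73 (n = 5). Among all 21 cholinergic clusters V5 (415 CPM) and the interneuron cluster I2 (335 CPM) lay above V10 (311 CPM). Pcsk2 (chr2:143546156-143816285, plus strand) encodes a convertase that cuts prohormones into peptides. It was at 60.3, 117 and 280 CPM in V10 and 50, 102 and 123 CPM in the other V nuclei, a difference of 0.38 ± 0.61, higher in 5 of 7 libraries. V10 ranked 8 of 21 clusters for it, so that Pcsk2 alone did not set V10 apart.

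The pair of genes did so among the visceral clusters, as a description. Both had a value in 75 of the 189 V10 nuclei (39.7%), Fras1 alone in 74, Pcsk2 alone in 26 and neither in 14. Of the other visceral clusters, V5 came next with both genes in 13.4% of its nuclei, then V3 with 12%. Outside the visceral class, I2 held both in 49.0% of its nuclei. Without the 18 nuclei with few zeros, 66 of 171 V10 nuclei held both.

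V10 made up an uneven part of the visceral nuclei of a library. Cervical libraries of replicates 1 to 3 held 53, 26 and 21 V10 nuclei, or 4.92, 6.19 and 5.61% of their visceral nuclei. Thoracic libraries held 14, 24 and 16, or 1.63, 5.97 and 1.63%, and lumbar/sacral libraries 8, 7 and 20, or 1.19, 1.56 and 5.31%. Thus 5 of 9 libraries were near 5 to 6% and 4 between 1 and 2%, and the regions overlapped. Without the nuclei with few zeros, the library labelled cervical of replicate 2 held 11 V10 nuclei among 355, or 3.1%, and lay between these levels, while the other 8 libraries were at 1.19 to 1.65% or 4.96 to 6.02%. The cervical mean was 5.58 ± 0.636%, the thoracic mean 3.08 ± 2.51% and the lumbar/sacral mean 2.68 ± 2.28% (SD, n = 3), and they did not differ beyond the spread between libraries by an exact permutation test (two-sided p = 0.254, adjusted p = 0.317 over the 10 V clusters). Without the nuclei with few zeros the cervical mean was 4.37 ± 1.10% (exact permutation p = 0.475, adjusted p = 0.594). The smallest p this design allows was 0.00357. Of all cholinergic nuclei, the shares were 2.28 ± 1.06, 1.09 ± 0.251 and 0.609 ± 0.446% (exact permutation p = 0.0143, adjusted p = 0.0714).

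Lumbar/sacral libraries had 1.64 points less V10 than the other 6 (exact permutation p = 0.214, adjusted p = 0.306 over the 10 V clusters, n = 3 against 6). Without the pair of replicate 2, the shares were 5.27 ± 0.491% in cervical and 1.63 ± 0.00587% in thoracic libraries (n = 2 each), with a p of 0.257 for the 3 regions (exact permutation). Male minus female was 0.576 points for cervical, 4.34 for thoracic and -3.75 for lumbar/sacral cord. The mean of 0.387 ± 4.05 points had an exact permutation p of 0.75, where 0.25 is the smallest possible with 3 pairs, and the 3 pairs are regions of 1 male and 1 female pool. The plot of shares by library shows this spread.

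**Figure D1:**
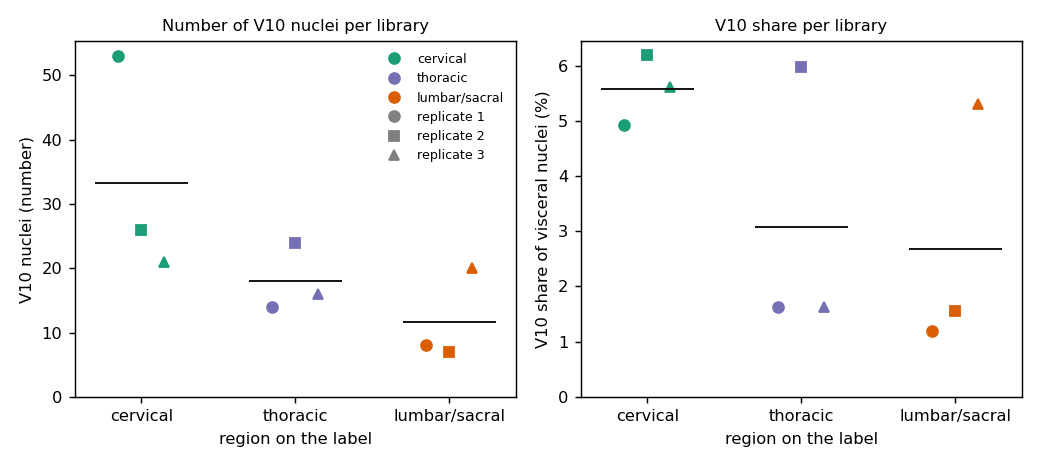
Number of V10 nuclei (left, count) and their share of the visceral nuclei in percent (right) for each of the 9 libraries, grouped by the region on the label. Points are libraries, with the replicate as the shape, and bars are means of 3. Cervical libraries lie between 4.92 and 6.19%, while 1 thoracic library (5.97%) and 1 lumbar/sacral library (5.31%) lie far above the other 2 of their region.

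V10 was next compared with the other V nuclei inside each of the 7 libraries with at least 10 V10 nuclei. Since the cluster was built from these same genes, the differences are a description and have no p-value. Of 10468 genes above a low-value filter, 107 were higher in V10 by at least 1 on the log2(CPM + 5) scale with the same sign in 7 of 7 libraries (1.02% of the genes), and 261 were lower (2.49%). The median difference over all genes was -0.18. The libraries of V10 and of the other V nuclei did not overlap at all for 78 of the 107 genes and for 133 of the 261, against 1% (V10 above) and 1.76% (V10 below) of all genes. V10 had the highest level of all 21 clusters for 50 of the 107 and the lowest for 55 of the 261, against 3.35% and 8.28% of all genes. With the other V clusters weighted equally, 176 genes were higher and 154 lower, so that higher genes outnumbered lower ones. Equal weights, here and below, cover only the other V clusters with at least 10 nuclei in the library. The set of clusters so weighted thus varied between libraries. With a pseudocount of 20 the counts were 83 and 99. Without the pair of replicate 2 the counts were 127 and 321, and without the nuclei with few zeros they were 125 and 281.

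The genes highest in V10 included a peptide receptor. Qrfpr (chr3:36179424-36222313, minus strand) encodes the receptor of the RFamide peptide QRFP. It was at 301, 819 and 1608 CPM in V10 and at 78.1, 94.6 and 168 CPM in the other V nuclei. Even the lowest V10 library was thus above the highest of the other V nuclei, with a difference of 2.91 ± 0.815 (SD, n = 7). Over all nuclei V10 (855 CPM) was followed by V1 (234 CPM), V3 (228 CPM) and V8 (211 CPM). A value of Qrfpr was found in 89.7 ± 11.1% of V10 nuclei, 35.2 ± 10.1% of other V nuclei and 4.34 ± 1.06% of skeletal motor neuron nuclei of the same libraries. The skeletal share is given for comparison, here and below, and was not separated into free RNA and own expression.

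Several leading genes act in cyclic nucleotide or small GTPase signalling, or at the synapse. Pde11a, a phosphodiesterase of cAMP and cGMP, was at 40.4, 219 and 620 CPM in V10 against 5.85, 14 and 29.5 CPM (3.37 ± 1.01). Pde3a, another phosphodiesterase, was at 67.4, 102 and 301 CPM against 2.07, 4.43 and 63.2 CPM (3.36 ± 0.75). For Pde3a the high value of the other V nuclei was that of lumbar/sacral replicate 3, and V8 (132 CPM) was level with V10 (128 CPM) among the clusters. Unc13c, which primes synaptic vesicles for release, was at 1027, 1510 and 2234 CPM against 76.7, 109 and 409 CPM (3.08 ± 1.02). It was not particular to V10 in the whole data set, where 3 interneuron clusters (I7, I1 and I5) had 1257 to 1332 CPM. Tiam2, an activator of Rac, was at 122, 254 and 328 CPM against 22.1, 34.2 and 59 CPM (2.51 ± 0.602).

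Some leading genes encode secreted or matrix proteins, which are placed together here for reading only. In the fixed list of matrix genes, described further on, 4 members were higher and 6 lower. Fstl4 (chr11:52764634-53188538, plus strand), a secreted follistatin-like protein, had the greatest mean difference of all 10468 genes. It was at 117, 257 and 297 CPM in V10 and 9.45, 12.3 and 18.7 CPM in the other V nuclei (3.68 ± 0.363), although skeletal cluster S1 (268 CPM) was at a like level. Nell1, a secreted protein with EGF-like domains, was at 939, 1248 and 1857 CPM against 76.5, 223 and 482 CPM (2.66 ± 0.965). Smoc2, a calcium-binding matrix protein, was at 158, 297 and 355 CPM against 20.5, 56.2 and 85.3 CPM (2.32 ± 0.841), and Col5a2, a fibrillar collagen chain, was at 31.4, 71.4 and 109 CPM against 3.25, 8.08 and 10.3 CPM (2.55 ± 0.363). The ranges of V10 and the other V nuclei did not meet for any of these 4 genes. The cytokine gene Il15 (chr8:82331632-82403222, minus strand) was low, at 15.6, 36.5 and 68.1 CPM, but the other V nuclei were at 0.53, 1.43 and 3.71 CPM (2.59 ± 0.762). Il15 thus passed the low-value filter through the V10 sums alone. It had a value in 16.8 ± 9.46% of V10 nuclei, 1.5 ± 0.948% of other V nuclei and 0.638 ± 0.771% of skeletal motor neuron nuclei.

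The remaining leading genes were receptors and nuclear factors. Ror1, a receptor tyrosine kinase-like protein that binds Wnt5a, differed by 3.27 ± 0.946. The other V nuclei were at most at 4.74 CPM for Ror1, which thus also passed the low-value filter through the V10 sums alone. Adgrl2, the adhesion receptor latrophilin-2, differed by 2.34 ± 0.414, and Rtn4rl1, a homologue of the Nogo receptor, by 2.50 ± 0.653. Runx1t1, a transcriptional corepressor, differed by 2.58 ± 0.628, and the transporter-like gene Slc35f4 by 2.85 ± 0.338. The unnamed genes Gm30382 (2.66 ± 0.779) and Gm5149 (2.26 ± 0.844) were the last of these. Each leading gene named here was higher in 7 of 7 libraries, and among them the ranges overlapped for Fras1 and Gm5149 only.

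**Figure D2:**
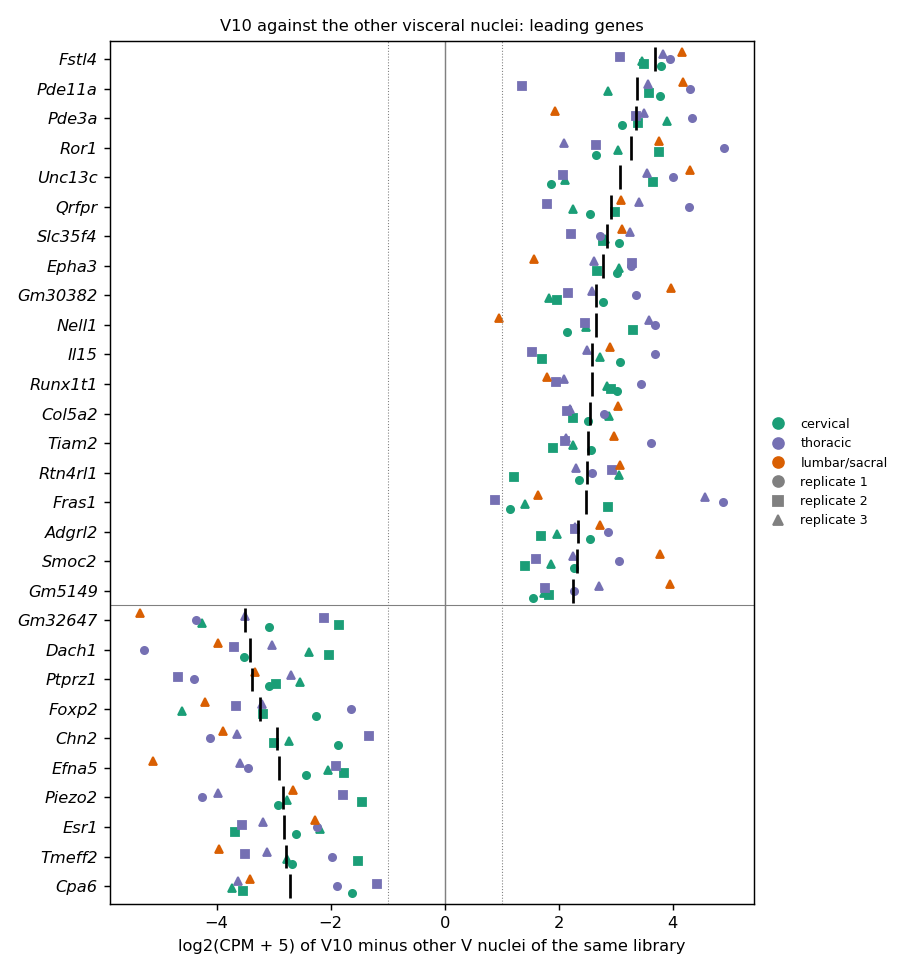
Difference between V10 and the other V nuclei of the same library, on the log2(CPM + 5) scale, for leading genes with a high mean difference (above the line) and the 10 with the lowest mean difference among those called. Each point is 1 of 7 libraries, coloured by region and shaped by replicate, black bars are means and dotted lines mark a difference of 1 either way. Every point of the genes above the line lies above 0, from 0.88 for Fras1 in 1 thoracic library to 4.91 for Ror1, and every point of the lower 10 lies below 0.

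Low genes in V10 included transcription factors found in other visceral clusters. Dach1 was at 0, 31.3 and 70 CPM in V10 and at 74.2, 303 and 459 CPM in the other V nuclei (-3.42 ± 1.08). Foxp2 was at 0, 7.78 and 33.5 CPM against 58.2, 111 and 117 CPM (-3.25 ± 1.04), a level carried mainly by V1 (408 CPM) and V9 (232 CPM). Esr1, the gene of estrogen receptor alpha, was at 2.59, 16.4 and 27.4 CPM against 92.8, 114 and 151 CPM (-2.82 ± 0.646). V10 had the lowest Esr1 of the 10 visceral clusters (12 CPM, with V7 next at 20.4 CPM). The ranges of V10 and the other V nuclei did not overlap for any of these 3 factors.

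Other low genes act at the membrane. Ptprz1, a receptor-type tyrosine phosphatase, was at 0, 13.6 and 23.5 CPM against 123, 154 and 242 CPM (-3.38 ± 0.834). Chn2, a GTPase-activating protein of Rac, was at 0, 0 and 4.49 CPM against 18.9, 55.6 and 81.8 CPM (-2.94 ± 1.05), the lowest of all 21 clusters. Tmeff2, a transmembrane protein with follistatin-like domains, was also lowest of the 21, at 18.2, 57.1 and 187 CPM against 305, 446 and 702 CPM (-2.79 ± 0.841). Piezo2, the mechanically gated channel, was at 0, 4.49 and 25.9 CPM against 27.8, 73.7 and 143 CPM (-2.83 ± 1.03). Efna5 is given with its receptors below. Gm32647 (-3.51 ± 1.26) and the carboxypeptidase gene Cpa6 (-2.72 ± 1.09) were the last of the 10, and Cpa6 was the 1 of them with overlapping ranges.

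The lists of genes by function were described in the same way, each beside the median of all genes (-0.18). Over all genes that passed, 1.02% were higher and 2.49% lower, and each main count below stands beside these shares. Under equal weights 1.68% of all genes were higher and 1.47% lower, and counts under equal weights stand beside those shares. Of 19 genes for prohormone processing and granins, to which the label gene Pcsk2 belongs, all 19 passed the filter. In either direction 0 were called (list median -0.17), against 2 higher and 0 lower under equal weights. Cpe, the carboxypeptidase that trims peptides after the convertases, was the highest at 0.93 ± 0.321, with 203, 359 and 543 CPM in V10 against 132, 177 and 228 CPM. V10 was above the other V nuclei in 7 of 7 libraries and first of the 21 clusters for it, but the ranges met. Pcsk1, the partner convertase, was at 15.6, 26.8 and 45.6 against 30.8, 44.6 and 87.2 CPM (-0.66 ± 0.766).

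Neuropeptide genes were scarce. Of 38 such genes 34 were in the matrix and 5 passed the filter, of which Cartpt, the gene of the CART peptides, was lower (0, 9.12 and 33.7 against 1.7, 58.9 and 105 CPM, -1.69 ± 1.2) and none higher. With equal weights 0 of the 5 were called. Penk, the enkephalin precursor, had 0, 4.49 and 13.4 CPM in V10 (-0.83 ± 1.89), and Sst, the somatostatin precursor, 0, 7.78 and 9.12 CPM. For both, the highest other V value (126 and 179 CPM) was that of lumbar/sacral replicate 3.

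Genes of nitric oxide and cGMP signalling were higher for 2 of the 9 that passed (list median 0.20), with 0 lower. Nos1 (chr5:117781032-117958840, plus strand), the neuronal nitric oxide synthase, was at 316, 495 and 777 CPM in V10 and 140, 218 and 229 CPM in the other V nuclei, with no overlap (1.35 ± 0.551). A value of Nos1 was found in 87.2 ± 8.95% of V10 nuclei, 55.5 ± 9.35% of other V nuclei and 8.29 ± 10.8% of skeletal motor neuron nuclei. Prkg2, the membrane-bound cGMP-dependent kinase, was at 15.7, 62.3 and 109 CPM against 3.68, 9.19 and 11.6 CPM (2.21 ± 0.925) and first of the 21 clusters. Prkg1, the other cGMP-dependent kinase, was near the same level in both (3480 and 2849 CPM as medians, 0.20 ± 0.131). The guanylyl cyclase subunits Gucy1a2 (0.28 ± 0.169) and Gucy1b1 (-0.11 ± 0.218), which sense nitric oxide, were not called.

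Receptors for descending transmitters differed by member. Of 9 adrenergic and serotonin receptors that passed (of 22 listed), 1 was higher and 1 lower (median -0.08), against 1 and 0 under equal weights. Htr2a (chr14:74640840-74709494, plus strand), a Gq-coupled serotonin receptor, was at 163, 259 and 422 CPM in V10 against 42.8, 58.4 and 135 CPM, with no overlap (1.72 ± 0.721), and with a value in 77 ± 16% of V10 nuclei and 36.8 ± 14.1% of other V nuclei. The gene of its relative Htr2c was at 261, 459 and 883 against 557, 840 and 1415 CPM (-0.75 ± 0.545), which was below the other V nuclei in 7 of 7 libraries but not called. Adra1b, an alpha-1 adrenergic receptor, was lower (0, 13.4 and 23.5 against 31.2, 35.4 and 44.8 CPM, -1.45 ± 0.907).

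Among 13 neuropeptide receptor genes that passed, a list that does not hold Qrfpr, 4 were lower and 0 higher (median -0.51). Equal weights gave 2 lower and 0 higher. Tacr1, the substance P receptor, was at 0, 9.52 and 13.5 CPM in V10 against 51.4, 71.2 and 184 CPM (-2.70 ± 1.16). Trhr, the receptor of thyrotropin-releasing hormone, was at 0, 0 and 6.7 against 12.6, 21.4 and 35 CPM (-2.14 ± 0.644). Its V10 values were at or near the floor, where 1 count was worth 2.59 to 9.12 CPM. Npy1r (-1.66 ± 0.457) and the mu opioid receptor gene Oprm1 (-1.33 ± 1.08) were lower too, with overlap for Oprm1. Neither muscarinic receptor gene that passed was called. Chrm2 was above the other V nuclei in 7 of 7 libraries (0.83 ± 0.571). Chrm3 was above them in 6 of 7 (0.68 ± 1.5) and below them in lumbar/sacral replicate 3 (-2.50).

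GABA and glutamate receptor genes gave a mixed picture of subunits. Of 19 GABA and glycine receptor genes that passed, 3 were higher and 1 lower (median 0.09), against 4 and 0 under equal weights. Gabrg3 was at 2489, 3702 and 4508 CPM against 671, 849 and 1950 CPM (1.68 ± 0.55), and Gabrg1 at 182, 429 and 671 against 61.6, 101 and 163 CPM (2.04 ± 0.457). With Gabra2 (397, 507 and 804 against 179, 223 and 343 CPM, 1.17 ± 0.196), these 3 GABA-A subunits were highest of the 21 clusters in V10 and did not overlap with the other V nuclei. Gabrg3 had a value in 100% of the V10 nuclei of each of the 7 libraries, and in 77.4 ± 7.21% of other V nuclei. The glycine receptor gene Glra3 was lower (-1.27 ± 0.658).

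Of 22 glutamate receptor genes that passed, 1 was higher and 2 were lower (median -0.09), against 3 and 1 with the other V clusters weighted equally. Grin2b, an NMDA receptor subunit, was at 938, 1017 and 1125 CPM in V10 against 296, 515 and 560 CPM (1.08 ± 0.377), again the highest of the 21 clusters. The metabotropic receptor gene Grm7 (119, 214 and 623 against 1069, 1489 and 2119 CPM, -2.65 ± 0.913) was lower, with no overlap.

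Potassium channel genes lay on both sides. Of 52 in the matrix 37 passed, 2 were higher and 8 lower (median -0.29), in a comparison where 1.02% of all genes were higher and 2.49% lower. With the other V clusters weighted equally, 3 were higher and 5 lower, where 1.68% of all genes were higher and 1.47% lower. Kcnd2, the pore subunit of an A-type current, was at 3051, 4778 and 6746 CPM in V10 against 1004, 1851 and 2074 CPM (1.49 ± 0.219), while Kcnip4, an auxiliary subunit of the same channel family, was at 465, 773 and 1524 against 3001, 3455 and 5543 CPM (-2.30 ± 0.422). Neither overlapped, and V10 had the highest Kcnd2 of the 21 clusters and the lowest Kcnip4 of the 10 visceral ones. Kcnh1, an ether-a-go-go channel, was higher (1.88 ± 0.643), and Kcnh7 (-1.61 ± 0.865), Kcnq5 (-1.53 ± 0.79), Kcnj6 (-1.47 ± 0.769), Kcnk9 (-1.15 ± 0.811) and Kcnn2 (-1.06 ± 0.633) were lower, as were Kcnip1 and Kcnip3. Of 24 sodium, calcium, HCN and related channel genes that passed, 2 were lower, Piezo2 and Cacna1g (-1.10 ± 0.924), and 0 higher (median -0.16). Equal weights gave 1 lower and 0 higher.

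**Figure D3:**
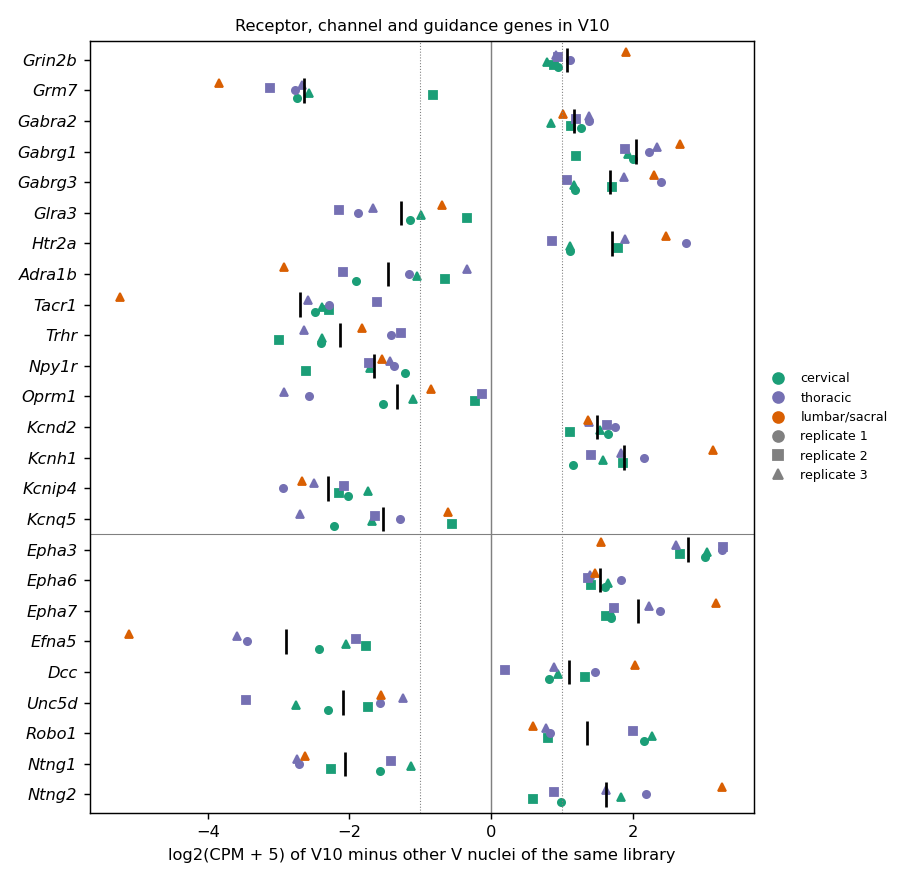
Difference between V10 and the other V nuclei of the same library on the log2(CPM + 5) scale for receptor and channel genes (above the line) and guidance genes (below it). Points are 7 libraries, coloured by region and shaped by replicate, black bars are means and dotted lines mark a difference of 1 either way. Epha6 and Gabra2 have the narrowest spreads, from 1.37 to 1.84 and from 0.84 to 1.39.

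Axon guidance genes of the ephrin, netrin and Slit families were called most often among the lists with 10 or more genes that passed. Of 24 that passed, 6 were higher and 4 lower (median 0.16), where 1.02% of all genes were higher and 2.49% lower. Equal weights gave 7 higher and 3 lower, where 1.68% of all genes were higher and 1.47% lower. The receptors Epha3 (chr16:63543534-63864175, minus strand), Epha6 and Epha7 were higher, and the ligand gene Efna5 was lower. Epha3 was at 446, 736 and 1005 CPM in V10 against 68.7, 79.4 and 213 CPM (2.78 ± 0.598). Epha6 was at 2067, 2872 and 3758 against 775, 1034 and 1189 CPM (1.54 ± 0.172), and Epha7 at 667, 852 and 1514 against 89.5, 212 and 313 CPM (2.08 ± 0.567). None of the 3 receptors overlapped, and V10 had the highest level of the 21 clusters for each. Efna5, which encodes an ephrin that binds EphA receptors, was at 18.2, 100 and 218 CPM in V10 against 333, 803 and 1148 CPM (-2.90 ± 1.22), also without overlap.

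The netrin and Slit genes were split in the same way. Ntng2, a membrane-bound netrin-G, was at 64.9, 138 and 246 CPM against 21.1, 41.4 and 48.4 CPM (1.63 ± 0.919), while its paralogue Ntng1 was at 91.2, 135 and 314 against 589, 665 and 772 CPM (-2.06 ± 0.682). The paralogues thus lay on opposite sides with no overlap. The netrin receptor gene Dcc was higher (480, 1714 and 3108 against 420, 738 and 1122 CPM, 1.10 ± 0.583) and the netrin receptor gene Unc5d lower (139, 379 and 630 against 437, 1583 and 2079 CPM, -2.09 ± 0.792), both with overlap. Robo1, a Slit receptor, was higher (1.35 ± 0.751) and Efnb2 lower (-1.32 ± 0.637).

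Semaphorin, plexin and neuropilin genes (22 passed) gave 3 lower and 0 higher, namely Sema3c (-2.0 ± 0.799), Sema5a (-1.55 ± 0.638) and Plxna2 (-1.30 ± 0.483). Of 21 cadherin genes 3 were lower and 0 higher (median -0.47), against 2 and 1 under equal weights. Cdh6 was at 23.8, 30 and 102 against 205, 243 and 517 CPM (-2.59 ± 0.509), and Cdh8 (-2.36 ± 1.09) and Cdh9 (-2.58 ± 1.2) were likewise lower without overlap. Cdh20 had the highest mean difference of the cadherins (3.04 ± 2.04) but was not called, because it was at 22.5 CPM in the V10 nuclei of the library labelled thoracic of replicate 2 and at 228 to 603 CPM in the other 6. Without the pair of replicate 2 the Cdh20 difference was 3.70 (n = 5).

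Matrix and glypican genes counted 4 higher and 6 lower among 31 that passed (median -0.32), and 5 and 3 under equal weights. Beside Col5a2, the higher ones were Adamtsl1, an ADAMTS-like matrix protein (1873, 3153 and 5004 against 442, 730 and 1079 CPM, 2.06 ± 0.537), Col12a1 (1.78 ± 0.65) and Tnr, the tenascin-R of perineuronal nets (1372, 1660 and 2117 against 465, 549 and 1008 CPM, 1.34 ± 0.476). Adamtsl1 was at 2820 CPM in V6, close to the 3042 CPM of V10. The lower ones were Fbn1 (-1.22 ± 0.789), Fbn2, Gpc3 (-1.82 ± 0.899), Col25a1 (-2.06 ± 0.849), Lama2 (-1.77 ± 0.723) and Tnc, tenascin-C, which was at 0 in each of the 7 V10 sums and at 2.07 to 20 CPM in the other V nuclei. In these V10 sums 1 count was worth 2.59 to 9.12 CPM, so that Tnc stood at the floor and its lower call says little. Of 7 Fraser complex and related genes that passed, Fras1 was higher, Itga8, the alpha-8 integrin, was lower (0, 6.7 and 13 against 22.4, 42 and 61.2 CPM, -2.20 ± 0.536), and the adaptor gene Grip1 was above the other V nuclei in 7 of 7 libraries without being called (0.45 ± 0.387).

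Transcription factor genes of motor neurons and spinal subtypes gave 1 higher and 4 lower of 41 that passed (median -0.18), and 4 and 2 under equal weights. Tshz1, a zinc finger factor, was higher at 44.9, 72.9 and 194 CPM against 19.7, 25.1 and 51.6 CPM (1.30 ± 0.767), with overlap. Beside Dach1 and Foxp2, Foxp1 was lower (71.8, 98.1 and 117 against 216, 280 and 368 CPM, -1.52 ± 0.444), as was Etv1 (-1.49 ± 0.976). Mnx1, a homeobox factor of developing motor neurons, was at 0, 10.9 and 35.9 against 0.663, 1.43 and 4.74 CPM (1.32 ± 0.948, higher in 6 of 7 libraries), and Isl1 at 0, 0 and 9.12 against 6.52, 25.5 and 56.8 CPM (-1.61 ± 0.997, lower in 6 of 7), and neither was called. Of 15 growth factor and neuregulin signalling genes, Gfra1, the GDNF co-receptor (-2.09 ± 1.33), and Met, the HGF receptor (-1.42 ± 0.534), were lower and 0 were higher (median -0.23). Equal weights gave 1 lower and 1 higher. Only 1 of 11 nicotinic receptor genes and 0 of 3 calcium-binding protein genes passed the filter, so these lists were too low here to describe.

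**Figure D4:**
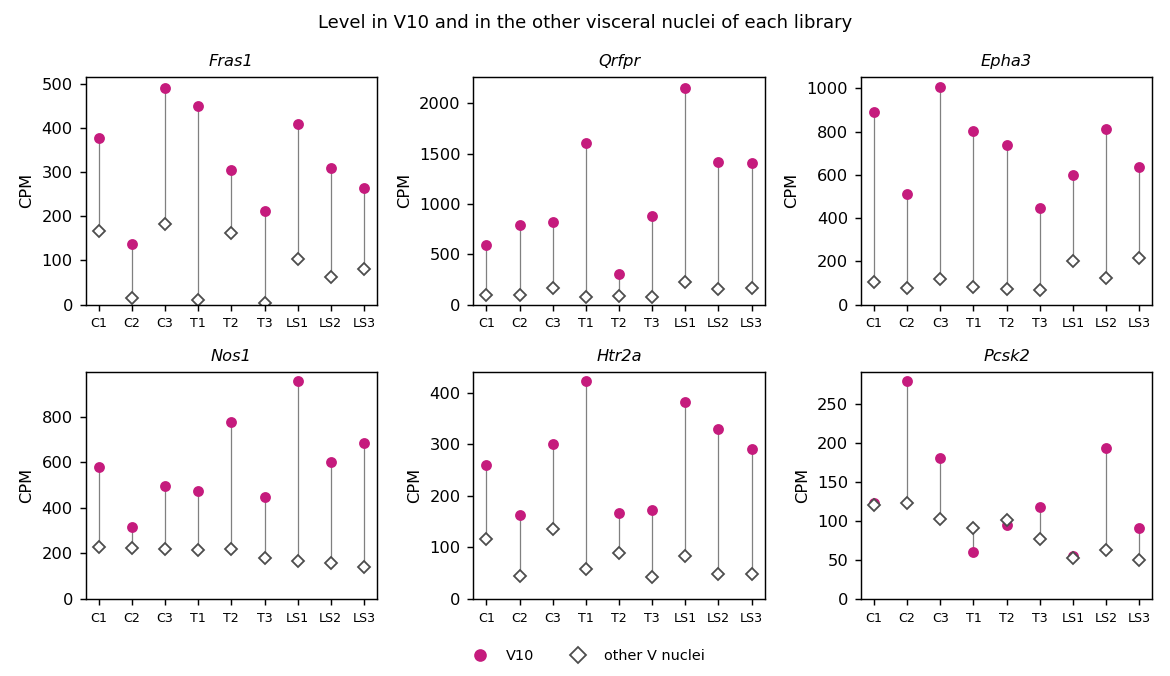
Level in CPM of Fras1, Qrfpr, Epha3, Nos1, Htr2a and Pcsk2 in V10 and in the other V nuclei of each of the 9 libraries, cervical (C), thoracic (T) and lumbar/sacral (LS) replicates 1 to 3, joined within a library. Qrfpr, Epha3, Nos1 and Htr2a do not overlap between V10 and the other V nuclei, while Fras1 and Pcsk2 do.

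V10 was closest to V3, then V1, in overall expression. Across 10468 genes, which are not independent replicates, the mean level of V10 on the log2(CPM + 5) scale had a Pearson correlation of 0.946 with V3 and 0.936 with V1 over 7 shared libraries, and of 0.925 with V9 over 6 and with V5 over 5. The nearest cluster outside the visceral class was I6 (0.878). The clusters share libraries and depth, and these values are descriptions. By the same rule as above, 152 genes were higher (1.42%) and 256 lower (2.40%) in V10 than in V3, 208 higher (1.98%) and 262 lower (2.49%) than in V1, and 231 higher (2.20%) and 275 lower (2.62%) than in V9.

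Of the 107 genes higher than in the other V nuclei as a whole, 39 were also higher than in V3, V1 and V9 taken one by one. They included Fstl4, Pde11a, Pde3a, Qrfpr, Unc13c, Epha3, Nell1, Il15, Fras1 and Nos1. V3, V1 and V9 are also part of the other V nuclei. The share of all genes that met the rule against V3, V1 and V9, in either direction, was not counted. V5, with the same correlation as V9 (0.925), was not compared in this way. Over all nuclei Fras1 was higher in V5 (415 CPM) than in V10 (311 CPM). Of the 261 lower genes, 20 were lower than in each of V3, V1 and V9, among them Kcnip4, Ptprz1, Kcnh7 and Sema5a. Of the 10 lowest genes described above, Ptprz1 was among these 20 and the others were not. Nos1 was at 193 CPM in V3, 75.9 CPM in V1 and 227 CPM in V9, with V10 higher by 1.56 ± 0.49, 3.06 ± 1.07 and 1.21 ± 0.375.

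Some genes were near the level of V10 in 1 of these clusters and far from it in the others. Smoc2 differed by 4.09 ± 0.638 from V3 and 3.87 ± 0.828 from V9 but by 0.69 ± 0.531 from V1. Gabrg1 differed by 5.82 ± 0.635 from V9, 1.09 ± 0.36 from V1 and 0.41 ± 0.525 from V3. Unc13c differed from all 3, by 6.35 ± 1.12 from V1, 5.93 ± 0.718 from V9 and 1.63 ± 1.16 from V3. Foxp2 was lower than in V1 by -5.28 ± 0.989 and than in V9 by -3.59 ± 0.881, while V3 was as low as V10 (-0.18 ± 1.5). Dach1 was not called against V1 (-0.86 ± 1.33), and Gm32647 was higher in V10 than in V1 in 6 of 7 libraries (0.97 ± 1.30). Whether a gene differs more from one of these clusters than from another was not tested.

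Next came the question of whether the V10 nuclei themselves differ by region. The authors describe correcting the counts of each region separately, so that a change of level between regions also carries that step. Median corrected totals per cholinergic nucleus also differed within a region, at 7087, 16127 and 10255.5 in cervical replicates 1 to 3. Whether the libraries of a region were corrected separately was not tested. A change of level between them, also between the sexes, may thus carry that step too. In the 7 libraries with at least 10 V10 nuclei, 0 of 9140 genes passed an adjusted p of 0.05 between thoracic and cervical V10 nuclei in limma (0% in either direction), and 409 had an unadjusted p under 0.05. The lowest adjusted p was that of Fam19a1, a secreted chemokine-like protein, at 70.9, 109 and 105 CPM in cervical replicates 1 to 3 and at 0, 8.98 and 7.83 CPM in the thoracic ones. It was lower in each thoracic library than in each cervical one, by -3.35 ± 0.521 (SE, limma adjusted p = 0.247). The libraries labelled cervical and thoracic of replicate 2 were on the side of their labels for Fam19a1.

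With the pool as a block, which pairs libraries of the same pool of mice, 1 gene fell, the splicing factor gene Rbfox1 (-2.31 log2, limma adjusted p = 0.0178). Without the pair of replicate 2, 2 genes fell in thoracic V10 nuclei. Erbb4, a neuregulin receptor, was at 376 and 348 CPM in cervical and 13.4 and 23.5 CPM in thoracic replicates 1 and 3 (-4.00, limma adjusted p = 0.0131), and the library labelled cervical of replicate 2 had 77.8 and the library labelled thoracic of replicate 2 had 278 CPM. The adhesion gene Kirrel3 was the other (-2.71, limma adjusted p = 0.0438), and it also fell with only the library labelled thoracic of replicate 2 left out (-2.56, adjusted p = 0.0436). The number of libraries is small, and a gene that did not pass is not shown to be equal.

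Lumbar/sacral V10 nuclei could be compared only with libraries of at least 5 V10 nuclei, a limit set after the data were seen, since 2 of the 3 lumbar/sacral libraries held 8 and 7. There 1 corrected count was worth 27.3 and 19.4 CPM, and so genes with a mean under 100 CPM were left out. Of 1677 genes 0 passed in limma (0% in either direction), with 190 at an unadjusted p under 0.05. The leading genes shared an adjusted p of 0.0669. Igsf9b, an adhesion protein of inhibitory synapses, was at 204 to 469 CPM in the 6 cervical and thoracic libraries and 929, 872 and 629 CPM in lumbar/sacral replicates 1 to 3 (1.31 ± 0.25, SE). Spock3, a secreted proteoglycan, was at 248 to 576 CPM and at 137, 19.4 and 109 CPM (-2.39 ± 0.452), and Grm8, a presynaptic glutamate receptor, at 121 to 448 CPM and at 54.6, 77.5 and 119 CPM (-1.39 ± 0.26). The ranges lay apart for all 3 genes, narrowly so for Grm8. With the pool as a block, 4 genes fell in the lumbar/sacral V10 nuclei (Grik2, Grm8, Spock3 and Bach2, limma adjusted p = 0.0486), and without the pair of replicate 2 there were 3 that rose and 3 that fell. The former were Pde11a, one of the leading V10 genes (1.75 ± 0.286, SE), Trabd2b (2.63 ± 0.418) and Igsf9b (1.33 ± 0.24), and the latter Grm5, a metabotropic glutamate receptor (-1.67 ± 0.238), the cadherin Cdh18 (-1.68 ± 0.274) and Klhl1 (-1.51 ± 0.245), with limma adjusted p from 0.0137 to 0.0281.

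The last comparison asked whether the difference between V10 and the other V nuclei changed along the cord. It was tested over the 9 libraries as the V10 minus other V difference in lumbar/sacral against the other libraries. Of 1757 genes, 90 had a more positive difference in lumbar/sacral libraries (5.12%) and 59 a more negative one (3.36%) at an adjusted p of 0.05 in limma. The make-up of the other V nuclei moved with the region: V8 was 30.5 ± 4.14% of the visceral nuclei in lumbar/sacral libraries and at most 0.172% on average in the other regions. Without V8 in the other V nuclei the counts were 31 and 17, and under equal weights 43 and 35. With the pool as a block they were 63 and 37, with no filter on low values 39 and 79, and without the pair of replicate 2 they were 64 and 21.

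Among the 10 genes with the lowest p in each direction, the greater part of the change was in the other V nuclei for 7 of the more positive and 8 of the more negative ones. It was in the V10 nuclei for Igsf9b, Meis2, Syt2, Hdac9 and Adarb2. Hdac9 was near the floor, at 27.3, 0 and 18.2 CPM in lumbar/sacral V10, where 1 count was worth 27.3, 19.4 and 9.12 CPM. Its V10 level was about as low in thoracic replicates 1 and 3 (20.1 and 15.7 CPM). Nwd2 was at 783 to 1300 CPM in the V10 nuclei of the 6 cervical and thoracic libraries and at 1257, 1007 and 1049 CPM in the lumbar/sacral ones, while the other V nuclei went from 716 to 1038 CPM to 302, 349 and 343 CPM. The protocadherin Pcdh7 was at 1226 to 2586 CPM and at 2213, 1414 and 1623 CPM in V10, against 1300 to 2267 CPM and 546, 379 and 625 CPM. In both genes the lumbar/sacral V10 nuclei stayed within the range of the other regions and the other V nuclei did not. Igsf9b and Sdk1, adhesion proteins of synapses, moved on both sides, Igsf9b by 1.31 in V10 and by -0.72 in the other V nuclei. Sdk1 was at 196 to 367 CPM and at 519, 407 and 492 CPM in V10, and at 177 to 347 and 106, 108 and 117 CPM in the other V nuclei. The change in difference was 2.03 ± 0.198 for Igsf9b and 1.96 ± 0.211 for Sdk1 (SE, limma adjusted p = 0.000799 for both). Without V8 these were 1.72 and 1.55 (adjusted p = 0.00167 and 0.00392).

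Of the genes with a more negative difference, Chrm3, the M3 muscarinic receptor, was at 108 to 610 CPM and at 137, 19.4 and 82.1 CPM in V10, while the other V nuclei had 38.4 to 125 CPM and then 680, 415 and 487 CPM (-4.17 ± 0.433, SE, limma adjusted p = 0.000799). V10 was thus above the other V nuclei in each cervical and thoracic library and below them in each lumbar/sacral one. Erbb4 was at 13.4 to 376 CPM and at 0, 0 and 36.5 CPM in V10, while the other V nuclei had 48.1 to 112 and then 1912, 1119 and 1420 CPM (-7.58 ± 0.891, limma adjusted p = 0.000971). In lumbar/sacral replicates 1 to 3, 1 V10 count was worth 27.3, 19.4 and 9.12 CPM. The V10 values of Chrm3 in replicate 2 and of Erbb4 thus stood near the floor there. Lrrc4c, the netrin-G ligand, was at 314 to 1160 and 191, 252 and 401 CPM in V10 and at 895 to 1751 and 5771, 3516 and 4862 CPM in the other V nuclei (-2.94 ± 0.469, adjusted p = 0.00441). Without V8 the values of Chrm3, Erbb4 and Lrrc4c were -3.99, -7.92 and -2.26 (limma adjusted p = 0.00167, 0.00167 and 0.0226).

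**Figure D5:**
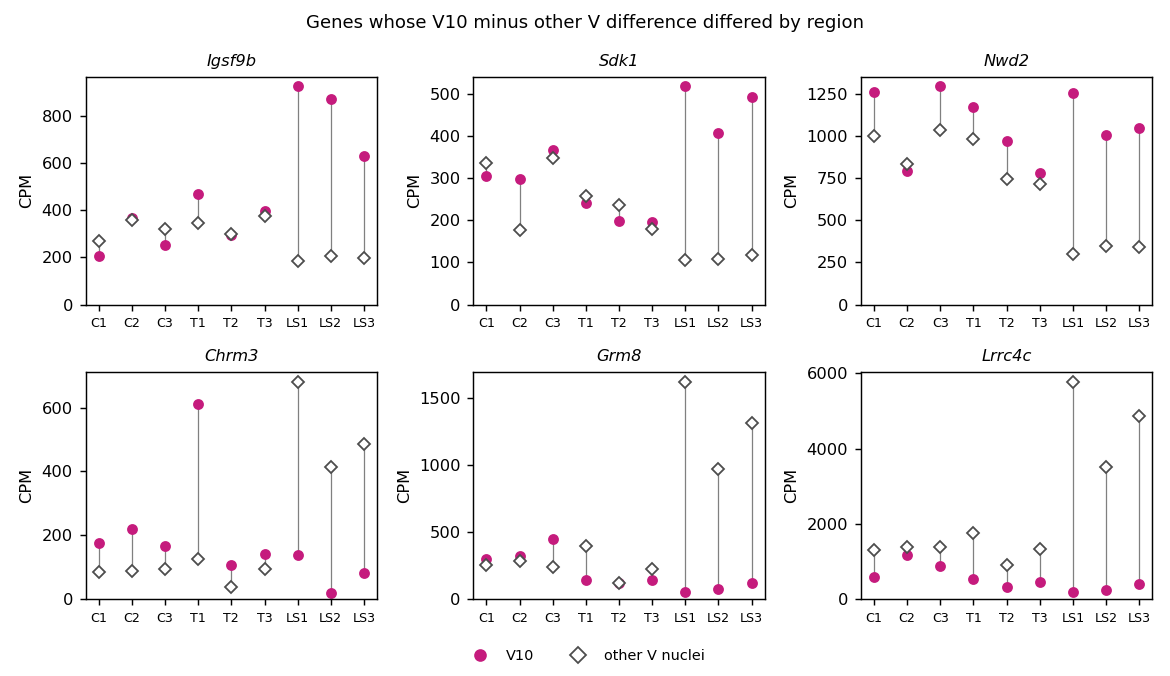
Level in CPM of 6 genes in V10 (filled points) and the other V nuclei (open diamonds) of each of the 9 libraries, cervical (C), thoracic (T) and lumbar/sacral (LS) replicates 1 to 3, joined within a library. In the upper row the V10 points lie above the diamonds in each lumbar/sacral library, and in the lower row below them. The lumbar/sacral points of replicates 1 and 2 stand on 8 and 7 V10 nuclei.

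Male and female V10 nuclei were compared over the 6 libraries of replicates 2 and 3 with the same limits and with region in the fit. There was 1 male and 1 female pool, so the fit sets regions of 1 pool against regions of the other, and its p-values measure the spread between regions. Of 1687 genes 0 passed in limma (0% in either direction), with 68 at an unadjusted p under 0.05. Xist, the X-inactivation RNA, was at 0, 4.49 and 0 CPM in V10 from the male pool (in the order cervical, thoracic, lumbar/sacral) and at 414, 697 and 419 CPM in V10 from the female pool, as labelled. It was lower in each male library (-6.34 log2) without passing the adjustment among genes above 100 CPM (adjusted p = 0.912). With no filter 4 genes rose and 4 fell in males. Uty, a Y-linked gene, was at 213, 112 and 96.9 CPM in the male and 0, 7.83 and 0 CPM in the female libraries.

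The V10 nuclei were also uneven among themselves for some genes. Variance divided by mean of the corrected counts, averaged over libraries with nuclei with few zeros left out, had a median of 1.01 over the 5484 genes found in 20 to 80% of V10 nuclei, and was 18.5 for Sgcz, a sarcoglycan, 16.6 for Kcnip4, 11.5 for Rbfox1, 10.2 for Galnt13, 10.1 for Gm28928 and 8.37 for the kainate receptor gene Grik1. These means rest on few libraries for some of the genes. Sgcz ran from 1.23 to 77.7 over libraries with a median of 5.21, Rbfox1 from 0.87 to 34.0 with a median of 3.85, and Gm28928 from 0.89 to 22.6. Kcnip4 was at 6.67 or more in every library, with a median of 11.2 and 52.8 in thoracic replicate 1. Kcnip4 had a value in 72.3% of V10 nuclei on average, from 57.1 to 92.5% over libraries, and a highest single nucleus of 13 to 75 corrected counts in those libraries. In Rbfox1 the share of nuclei with a value ran from 15 to 88.9% over libraries, and in Sgcz from 15 to 94.4%.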

How the data were processed

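Nuclei were sorted from spinal cords of Chat reporter mice and barcoded in droplets in 9 libraries (3 regions, 3 pools of mice). Alignment by the authors used Cell Ranger 3.1.0 and mm10, with introns counted through a pre-mRNA reference, and the authors then removed outlying nuclei, normalised each region separately with SCTransform in Seurat, integrated the regions and clustered. The deposited values are whole numbers whose totals per nucleus vary little within a library, and from this and the study's methods they were taken as the corrected counts of that step, a score rather than raw counts, so that no count model was used. The deposited annotation gave the cluster, region and sex of each nucleus.

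Corrected counts were summed per library over V10 and over V1 to V9, scaled to 1000000 (CPM), and compared as log2(CPM + 5). Genes needed 10 CPM in at least 3 sums, and libraries 10 V10 nuclei. Where V10 was compared with the other V nuclei, the sums of both were counted together, so that a gene could pass through either side alone. V10 was called different from the other V nuclei at a mean difference of at least 1 with the same sign in every library, with no p-value. Region, sex and the change of the V10 difference along the cord were fitted in limma 3.58.1 (R 4.3.3) with a trend in the variance, and p-values were adjusted over all genes by Benjamini-Hochberg at 0.05. At 10 nuclei per library 1 lumbar/sacral library remained, so the lumbar/sacral and along-the-cord fits, which needed 2 libraries a side, and the sex fit, which needed 2 residual degrees of freedom, were not run, and fits with at least 5 nuclei and a mean of at least 100 CPM were added after the data were seen. Shares were compared by exact permutation over libraries (scipy 1.17.1, Python 3.11.15). Doublets were marked with scanpy 1.11.5. The scripts were tested on simulated data with known changes. Genes not changed made up 23 of 218 calls in the along-the-cord fit and 27 of 221 in the lumbar/sacral fit. They made up 9 of 209 in the thoracic minus cervical fit and 6 of 190 in the sex fit.

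Cluster members, label genes and gene lists were chosen with earlier results of these data known. Named genes were the cell type markers, the 20 highest and 10 lowest called by mean difference, up to 10 genes by adjusted p in each direction of a region fit, up to 5 by sex with the sex chromosome genes, the called members of each list with up to 4 others, and up to 6 genes with the widest spread between nuclei. Genes and values singled out beyond that rule were chosen after their values were seen. A few genes that the rule names are not reported here. Coordinates are from GENCODE vM21 (GRCm38), in which 685 of 688 named genes were found. No sequence is printed, since none carries the results.

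Replicate numbers mark pools, and by the labels and the study's methods all regions of a replicate come from the same mice. Deviations of same-pool libraries from their region means correlated at a median of 0.105 (-0.0425 to 0.207, 9 pairs), those of other pairs at -0.0535 (18 pairs). The pool was therefore tried as a block. Intervals of depth, the worth of 1 corrected count and the totals of each V10 sum are given in the report, and they limit the lumbar/sacral libraries most.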

Additional observations from a re-analysis of the deposited data

Results flagged for a closer look

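Among the 33 genes tested library by library for the V10 minus other V difference, 2 had a library far from the other 6. Chance gives about 1 in 20. Epha3 differed by 1.56 in lumbar/sacral replicate 3, where the nearest other library was at 2.61. Rtn4rl1 differed by 1.21 in the library labelled cervical of replicate 2, the one that holds 15 V10 nuclei with few zeros, where the nearest other library was at 2.31. Without those nuclei the mean difference of Rtn4rl1 was 2.64.

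The V10 minus other V difference itself differed between lumbar/sacral and the other libraries for 149 of 1757 genes in limma, and the 10 with the lowest p in each direction are given as values on the log2(CPM + 5) scale. More positive in lumbar/sacral libraries were Igsf9b (2.03), Sdk1 (1.96), Pcdh7 (1.62), Dner (1.66), Nwd2 (1.5), the homeobox factor Meis2 (2.01), Galnt13 (2.28), Stac (1.89), the synaptic calcium sensor Syt2 (1.78) and Prima1, which anchors acetylcholinesterase (1.63). More negative were Chrm3 (-4.17), Grm8 (-3.78), Erbb4 (-7.58), Gm28928 (-4.07), Hdac9 (-3.94), Grid1 (-1.81), Lrrc4c (-2.94), the NeuN gene Rbfox3 (-1.59), Adarb2 (-2.28) and Syt1 (-1.18). The limma adjusted p-values ran from 0.000799 to 0.00491.

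The make-up of the other V nuclei moves with these values. V8 had 3525 CPM of Grm8, 2583 CPM of Gm28928 and 8575 CPM of Lrrc4c, against 249, 134 and 672 CPM in V10, and 20.9 CPM of Nwd2 and 8.84 CPM of Prima1, against 1051 and 352 CPM in V10. With V8 left out, 18 of the 20 genes still passed, and Gm28928 (-1.77) and Syt1 (-0.65) did not (limma adjusted p = 0.0862 for both). V1, V6 and V9, whose shares also differed by region, stayed in that comparison.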

How the results depend on the processing

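The numbers of genes higher and lower in V10 were 107 and 261. With the other V clusters weighted equally they were 176 and 154, and with a pseudocount of 20 the lower genes were 99. Leaving out 1 library at a time gave 107 to 120 higher and 281 to 303 lower. Of 594 values of the 33 named genes under these alternatives, 567 moved by less than the spread between libraries, 27 moved by more and 0 changed sign. Between thoracic and cervical V10 nuclei, the pool as a block gave 1 lower gene, leaving out the pair of replicate 2 gave 2, and leaving out single libraries 0 to 1 (1 without the library labelled thoracic of replicate 2). In lumbar/sacral V10 nuclei, the pool as a block gave 4 lower genes, no filter 1, and leaving out the pair 3 higher and 3 lower. Leaving out single libraries gave 0 to 1 higher and 0 to 3 lower, with 1 and 3 without the library labelled cervical of replicate 2, and 1 lower without lumbar/sacral replicate 2.

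For the change along the cord (90 and 59 genes), no filter gave 39 and 79, equal weights 43 and 35, and no V8 31 and 17. The more negative ones were 37 with the pool as a block, 37 without nuclei with few zeros and 21 without the pair of replicate 2. Single libraries left out gave 48 to 80 and 27 to 97, with the lowest positive count without lumbar/sacral replicate 1 (48) and 2 (54), and negative counts of 30, 29 and 27 without cervical replicates 1, 2 and 3, 32 and 35 without thoracic replicates 2 and 3, and 97 without lumbar/sacral replicate 3. Of 360 values of the 20 genes named, 353 kept their side of the threshold and 7 lost it. Between the sexes, no filter gave 4 higher and 4 lower genes, a pseudocount of 20 gave 1 lower, and single libraries left out 0 to 1 lower (1 without the library labelled thoracic of replicate 2, Xist). The cause of these shifts was not tested.

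The V10 share by region kept its side under each alternative, with adjusted p from 0.0714 to 0.594. The pool as a block gave an exact permutation p of 0.25, and the block changed no other call than those above. The lumbar/sacral difference ran from -2.95 to -0.896 points with single libraries left out. Not run with at least 10 nuclei were the lumbar/sacral and along-the-cord fits, where 1 lumbar/sacral library remained, and the sex fit, which left fewer than 2 residual degrees of freedom. Region fits with at least 20 nuclei, which leave 1 thoracic library, were not run either. Depth limits low genes most in lumbar/sacral replicates 1 and 2.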
